A study of Mus musculus with 2 samples.

Results

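REST, the repressor encoded by Rest, and 9 neuronal genes known as its targets were followed in maps of open chromatin. The 10 genes, of 21755 protein-coding genes on chromosomes 1 to 19 and X in GENCODE release M21 (assembly mm10), were taken by symbol: Rest, Snap25, Stmn2, Stmn3, Syp, Celsr3, Bdnf, Gria2, Scn2a and Syt4. All 10 were found in the annotation. For each gene the question was whether openness lay on the repressor's binding sequence or on a transcription start site (TSS).

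DNase-seq was run on adrenal gland tissue of female B6CASTF1/J mice aged 4 days, in 2 libraries labelled biological replicates 1 and 2 of 1 group. DNase I cuts accessible DNA, so that an excess of cuts marks an open region (a peak) and a short protected stretch inside it marks a footprint. Each sample was described as holding 3 females, no treatment was given, and B6CASTF1/J mice are first-generation hybrids whose alleles were not separated. With 1 group there was no comparison to test, and each value is given per library.

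REST is a zinc finger protein that binds a long DNA element, RE1 (also called NRSE), and recruits corepressor complexes with histone deacetylases and demethylases. In cells that are not neurons it holds neuronal genes silent, and its own level falls as neurons mature. The chromaffin cells of the adrenal medulla share a neural crest origin with sympathetic neurons, while the steroid-producing cortex around them does not.

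RE1 was searched on both strands as a consensus of 16 positions: a left arm of 8 letters, 2 free bases, and a right arm of 6 letters. The left arm reads T, then C or T, then AG, then A or C, then A or G, then CC. The right arm reads A or G, then G, then A or C, then C or G, then AG. An exact match met all 14 positions that name a base, and a near match missed 1 of them. Matches inside a gene or within 20 kb of it were counted for that gene, which gave 11 exact matches in 6 of the 10 genes and 14 near matches.

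The matches that lay under a peak are shown with 1 base before and 4 bases after, 5′ to 3′ on the strand of the match, because their letters go with openness below. Capitals mark the bases that meet the consensus. The first 6 lines are exact matches of 5 genes, and the Snap25 matches are named by their distance downstream of the gene's 5′ end.
Snap25 843 bp: cTCAGCACCctGGACAGgagt
Snap25 893 bp: tTCAGCACCgcGGACAGcgat
Stmn2: tTCAGCACCacGGACAGcgct
Bdnf: tTCAGCACCttGGACAGagcc
Gria2: tTTAGCACCgcGGACAGcgct
Scn2a: tTCAGCACCacGGACAGcacc
Stmn3 (near): gcCAGCACCatGGCCAGcacc
Syp (near): tcCAGCACCgtGGACAGagcc
Celsr3 (near): tTCAGCACCgtGGgCAGcact
Stmn3 and Syp each departed from the consensus by T1C, and Celsr3 by M13G, with positions counted from 1 at the 5′ end of the match, the consensus letter first (M stands for A or C) and the base of the site last. The exact match of Syt4 lay under a peak too and is described by its values only.

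The other 4 exact matches of these genes, in introns of Stmn2, Gria2 and Scn2a and downstream of Stmn2, lay under no peak in either library. They are shown in the same form for comparison.
Stmn2 intron: cTCAGAACCcaAGCCAGgaaa
Stmn2 downstream: cTCAGCACCtcAGACAGtctg
Gria2 intron: gTCAGAGCCctGGAGAGataa
Scn2a intron: aTCAGAGCCcaAGCCAGaccc
The open exact matches, apart from that of Gria2 with T as its second letter, shared one spelling, with the left arm TCAGCACC and the right arm GGACAG, the Syt4 match included. None of the 4 matches without a peak had both of these arms.

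Replicate 1 had 46031 peaks and replicate 2 had 87387, of which 27765 and 50406 were in the stricter of the 2 deposited lists. The footprint lists held 98364 and 141983 entries. The median peak signal, the authors' own value per peak (scaling not given in the sources used here), was 0.930 and 0.985. Of 10 cortex markers, 5 had a peak within 1 kb of a TSS in both libraries (Scarb1, Fdx1 and Nr5a1 the strongest), and Cyp11b1, Hsd3b1 and Mc2r had none in either. Of 10 chromaffin markers, 6 had one in both, and Th, Dbh and Pnmt, which define catecholamine synthesis, had none in either. Among all protein-coding genes 61.3% had such a peak in both libraries, so neither count stood above the background. In bulk tissue, fewer cells of a type and less openness per cell cannot be told apart.

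Openness near a TSS was common among the 10 genes, as among protein-coding genes at large. A peak lay within 1 kb of an annotated TSS in both libraries at 9 of the 10 genes, against 61.3% of all protein-coding genes. Stmn2 was the exception, with such a peak in replicate 2 alone. The strongest of these peaks had a median signal of 1.58 over 9 genes in replicate 1 and 2.79 over 10 genes in replicate 2, beside 2.08 and 4.03 over all protein-coding genes with a TSS peak. Both medians lay below those of all genes. A peak on a TSS base itself was called only at Rest, Snap25 and Syp in replicate 1. In replicate 2 Celsr3 and Bdnf had one as well. At Gria2 and Syt4 the only peak in the TSS window was the one on the RE1 match. The count of TSS windows and the count of matches below therefore share peaks.

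Openness on the RE1 match was the rarer state. An exact match lay under a peak in both libraries at 5 of the 10 genes (Snap25, Bdnf, Gria2, Scn2a and Syt4), against 1.38% of all protein-coding genes, and Stmn2 joined them in replicate 2. By site, 6 of the 11 exact matches lay under a peak in both libraries, against 12.5% of the 2163 exact matches of the genome, and 7 did so in replicate 2. Footprints overlapped 5 of the 11 in both libraries, against 10.7% in the genome. Of the 14 near matches, 2 lay under a peak in both libraries, those of Stmn3 and Celsr3, against 1.17% of the 44793 near matches of the genome. The genes were listed because REST is known to bind them, so these counts are no independent evidence of an excess over the genome.

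The peaks on the matches of these genes did not cover a start site, as at most exact matches of the genome under a peak. With so few matches, the counts cannot set these genes apart from the genome. None of the peaks over the members' exact matches, 6 matches in replicate 1 and 7 in replicate 2, covered the TSS base of a protein-coding gene. Across the genome, 26 of 289 matches under a peak (9%) and 22 of 422 (5.21%) shared the peak with such a base. At 4 of the 5 genes with both a match and a TSS window open in both libraries, the peak on the match was itself the strongest in the TSS window in both. The same held for 63 of 237 such genes in the genome (26.6%), a count that shares these 5. The genome count also takes matches up to 20 kb from a gene, whose peaks need not reach the TSS window. Of the 270 exact matches of the genome open in both libraries, 78 lay within 1 kb of a protein-coding TSS. The open matches of the 5 genes lay 156 to 868 bp from a TSS, so the shares are not directly comparable.

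**Figure D1:**
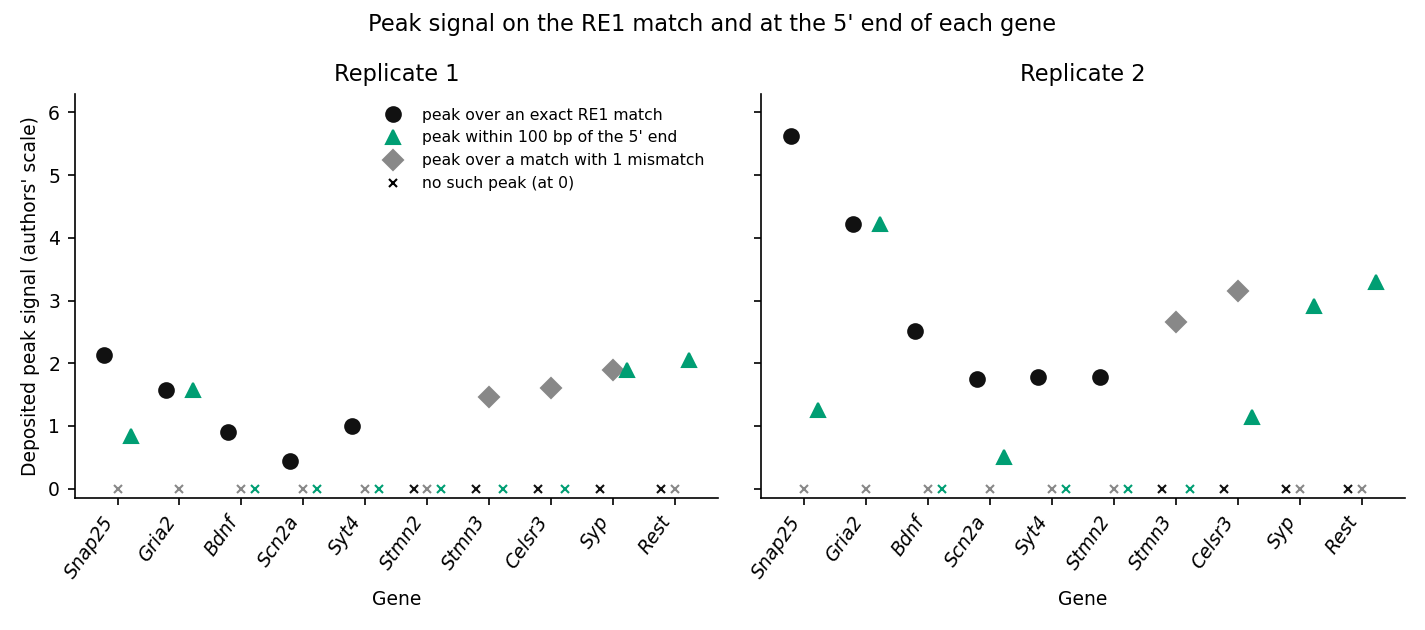
Deposited peak signal (y axis, authors' scale) for each gene (x axis) in replicate 1 (left) and replicate 2 (right): circles for the peak over an exact RE1 match, diamonds for a near match, triangles for a peak within 100 bp of the gene's 5′ end, and crosses at 0 where there was no such peak. Snap25 has 5.62 on its matches and 1.25 at its 5′ end in replicate 2. Gria2 has 1 peak that meets both descriptions. Rest and Syp have a peak within 100 bp of the 5′ end and no exact match.

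Rest itself, the gene of the repressor (ENSMUSG00000029249.15, chr5:77265491-77286432, plus strand), was open at its start and not at an RE1. The peak over its 5′ end had a signal of 2.05 (replicate 1) and 3.30 (replicate 2), and 17.2% and 15.1% of the peaks of those libraries were as high. Another peak, in an intron, had 1.55 and 2.37. One more, over an internal TSS, had 0.989 and 1.36. Together these 3 made a stretch of open chromatin from the 5′ end into the gene, with 1739 and 1821 bp of the 2 kb to either side below the deposited adjusted p of 0.05 for the local cut rate. No other of the 10 genes exceeded 767 bp.

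Rest also had the most CpG-rich start of the set, with an observed to expected CpG ratio of 1.05 and 69.4% G and C over the 500 bp to either side of the 5′ end. The ratios of the other 9 genes ran from 0.255 (Stmn2) to 0.713 (Celsr3). Its 3 near matches lay under no peak and it had no exact match. An intronic peak 10649 bp downstream of the 5′ end was called in replicate 2 alone, at 1.53. The part of the 5′ peak upstream of the gene, chr5:77265261-77265490 on the plus strand, is shown because its signal lay at the 5′ end, unlike that of the genes with an open exact match. Capitals mark the 6 matches to GGGCGG, the box bound by SP factors, counted on both strands with overlaps allowed.
Rest upstream: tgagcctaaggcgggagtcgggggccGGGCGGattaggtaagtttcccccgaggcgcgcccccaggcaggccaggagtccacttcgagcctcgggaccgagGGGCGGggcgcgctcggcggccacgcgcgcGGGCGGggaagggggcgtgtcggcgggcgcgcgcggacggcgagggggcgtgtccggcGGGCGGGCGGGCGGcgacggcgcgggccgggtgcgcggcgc
Of all peaks, 40.8% in replicate 1 and 27.6% in replicate 2 held this box in the 300 bp around their centre. The 5′ peak of Rest held 7 in that window, whereas the peaks over the exact matches of Snap25, Stmn2, Bdnf, Gria2, Scn2a and Syt4 held 0. The regions over the near matches of Syp, Celsr3 and Stmn3 held 5, 3 and 2.

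Snap25 encodes a membrane protein of the SNARE complex that fuses synaptic vesicles (ENSMUSG00000027273.13, chr2:136713453-136782428, plus strand). It had the highest signal on an RE1 among the 10 genes. Its 2 exact matches, at chr2:136714289-136714304 and chr2:136714339-136714354, lay 50 bp apart in an intron, 843 and 893 bp downstream of the 5′ end. A single peak over both had a signal of 2.12 (replicate 1) and 5.62 (replicate 2), and 16.2% and 5.97% of peaks were as high. The separate peak over the 5′ end had 0.844 and 1.25, so the repressor site was the more open place in both libraries.

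The replicate 2 peak of Snap25, chr2:136714261-136714400 on the plus strand, is shown with both 16-base matches in capitals.
Snap25 peak: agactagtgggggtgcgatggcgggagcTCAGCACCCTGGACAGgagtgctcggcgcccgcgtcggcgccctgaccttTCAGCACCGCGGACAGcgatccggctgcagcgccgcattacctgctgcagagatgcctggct
Both matches had the same arms, and only the second carried a footprint. It was 20 bp wide in replicate 1 (chr2:136714338-136714357) and 27 bp in replicate 2 (chr2:136714336-136714362). Over the first match no footprint was called in either library, although a 9 bp footprint in replicate 2 ended at its edge. The genome held 16 pairs of exact matches within 100 bp of each other. In 8 pairs both matches were under a peak in both libraries, and in 5 of those 8, Snap25 among them, 1 match of the pair had a footprint in both libraries.

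The third open region of Snap25, 6987 bp downstream of the 5′ end, had a signal of 1.24 (replicate 1) and 3.20 (replicate 2) and held no match to RE1. It exceeded the 5′ end in both libraries as well. The 5′ peak was the only region of the 10 genes with the cAMP response element TGACGTCA (both strands), which 1.42% and 0.952% of all peaks held.

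Syt4 encodes a synaptotagmin of dense-core vesicles (ENSMUSG00000024261.6, chr18:31437808-31447406, minus strand). It had 1 peak within the gene and 20 kb around it, and that peak lay on the RE1. The match, chr18:31447182-31447197, lay in the untranslated first exon 217 bp downstream of the TSS. The peak had a signal of 0.998 (replicate 1) and 1.78 (replicate 2), its centre was 1 bp from the centre of the match in both, and footprints of 27 and 21 bp covered the whole match. Within 50 bp of the 5′ end the authors' list of local cut rates gave no adjusted p below 0.05 in either library.

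Syp encodes synaptophysin, a protein of the synaptic vesicle membrane (ENSMUSG00000031144.15, chrX:7638471-7653256, plus strand). It had no exact match. Its peak near the 5′ end had a signal of 1.89 and 2.92 and covered an annotated TSS, but not the 5′ end itself. The near match at chrX:7638738-7638753, in a coding exon 274 bp downstream of the 5′ end and 23 bp from an annotated TSS, lay under that peak in replicate 1 (95 bp from its centre) without a footprint. In replicate 2 the peak stopped short of it, and a footprint of 23 bp covered it. The 2 libraries therefore did not give the same call there. The adjusted p of the local cut rate was lowest 197 and 210 bp downstream of the 5′ end, at 9.14e-09 and 3.21e-16. Both places lay between the 5′ end and the near match, closer to the near match. Within 50 bp of the 5′ end the adjusted p was higher, at 0.00326 and 1.91e-05. A further region 7069 bp downstream of the 5′ end, without any match, had 1.62 and 3.77.

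Bdnf encodes brain-derived neurotrophic factor, a secreted growth factor with several alternative first exons (ENSMUSG00000048482.14, chr2:109674700-109727007, plus strand, 9 annotated TSSs). The match at chr2:109676046-109676061 lay in an untranslated exon, 1353 bp downstream of the 5′ end and 156 bp from the nearest TSS. Its peak had a signal of 0.904 and 2.51, the highest of the gene in both libraries. Footprints of 11 and 17 bp, with 1 base between them, lay over it in replicate 1, and 1 footprint of 29 bp in replicate 2. The peak was also within 1 kb of a TSS of Gm45346, a second annotated gene. Around the 5′ end itself no local cut rate passed an adjusted p of 0.05. A region at an internal TSS, 18997 bp downstream, had 0.571 and 0.906. Its peak covered the TSS base in replicate 2, and no peak did so in replicate 1.

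Gria2 encodes a subunit of AMPA glutamate receptors (ENSMUSG00000033981.14, chr3:80681450-80802835, minus strand). Here the RE1 was the closest to the 5′ end among the exact matches, and its peak came within 100 bp of the 5′ end without covering it. The match, chr3:80802990-80803005, lay 162 bp upstream of the 5′ end on the strand opposite to the gene, and its peak had a signal of 1.58 (replicate 1) and 4.21 (replicate 2). The footprint was chr3:80802989-80803013, 25 bp, in both libraries, base for base. The deposited adjusted p of the local cut rate was lowest 36 and 41 bp from the match, on its gene side, at 3.39e-14 and 8.8e-25. Within 50 bp of the 5′ end it was higher, at 6.41e-10 and 5.9e-17, so that the cut rate stood out more at the match than at the TSS in both libraries.

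The replicate 2 peak of Gria2, chr3:80802901-80803060, is printed on the minus strand, the strand of the gene, with the reverse complement of the match in capitals.
Gria2 peak: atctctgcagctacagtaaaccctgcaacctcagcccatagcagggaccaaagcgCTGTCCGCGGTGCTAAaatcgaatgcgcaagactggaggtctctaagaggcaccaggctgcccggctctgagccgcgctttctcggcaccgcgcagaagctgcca
A second exact match of Gria2, in an intron 1009 bp downstream of the 5′ end, lay under no peak in either library. The 2 matches of the gene differ in both arms, as the lines above show.

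Scn2a encodes a voltage-gated sodium channel (ENSMUSG00000075318.12, chr2:65620771-65767447, plus strand). Its RE1, chr2:65619965-65619980, lay 799 bp upstream of the 5′ end. The peak over it was weak in replicate 1, at 0.444 and outside the stricter list, where 90.6% of peaks were as high, and reached 1.74 in replicate 2. Footprints of 10 and 10 bp covered most of the match in replicate 1 and 1 of 29 bp covered all of it in replicate 2. A peak just upstream of the 5′ end was called in replicate 2 alone, at 0.510. The strongest peak of replicate 1 in the gene lay 47789 bp downstream, 126 bp from an internal TSS without covering it, at 0.580, and had 0.862 in replicate 2, so the order of these 2 peaks differed between the libraries.

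Stmn2 encodes stathmin 2, a tubulin-binding protein of growing axons (ENSMUSG00000027500.10, chr3:8509360-8561606, plus strand). In replicate 1 no peak was called in the gene or within 20 kb of it. In replicate 2 the strongest peak, 1.78, lay on the exact match chr3:8508231-8508246, 1122 bp upstream of the 5′ end and so outside the 1 kb window, with a footprint of 28 bp. The 2 other peaks of replicate 2, within the gene, had 0.440 and 0.484.

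The list of local cut rates held a trace of the same place in replicate 1. Within 2 kb of the 5′ end, 43 bp were listed below an adjusted p of 0.05, and they overlapped the match, where the lowest value was 0.0456. Of the 152 exact matches of the genome with a peak in replicate 2 alone, Stmn2 included, 6 (3.95%) overlapped a position listed in replicate 1. The replicate 2 peak, chr3:8508161-8508320 on the plus strand, is shown with the match in capitals.
Stmn2 peak: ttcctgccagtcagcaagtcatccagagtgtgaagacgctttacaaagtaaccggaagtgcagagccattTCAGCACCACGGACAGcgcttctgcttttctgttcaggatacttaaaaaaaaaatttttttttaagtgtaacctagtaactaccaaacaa
The match sat 2 bp from the centre of that peak.

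Stmn3 encodes a second stathmin (ENSMUSG00000027581.12, chr2:181306459-181314500, minus strand) and had no exact match. Its 1 peak within 1 kb of the TSS, 1.46 and 2.66, did not cover the TSS and lay over the near match chr2:181314205-181314220, in a coding exon 288 bp downstream. The match was 18 and 2 bp from the peak's centre. No footprint overlapped it in replicate 1, and a footprint of 9 bp overlapped its edge in replicate 2. Stronger peaks within 20 kb, up to 2.00 and 3.61, lay within 1 kb of TSSs of Gmeb2 or Rtel1.

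Celsr3 encodes a large adhesion receptor of the cadherin family that guides axons (ENSMUSG00000023473.13, chr9:108826320-108852969, plus strand). It had no exact match and 3 open regions near its first exon. The near match chr9:108825919-108825934, 394 bp upstream of the 5′ end, lay under a peak of 1.60 and 3.15, with a 14 bp footprint in replicate 2 alone. A region in the first coding exon, 780 bp downstream, had 2.36 and 4.19, and an intronic region 6340 bp downstream had 1.71 and 4.48. The peak on the 5′ end was called in replicate 2 alone, at 1.14, so both flanks were more open than the start. That peak and the one on the near match were also within 1 kb of a TSS of Gm37714, another annotated gene. The highest peak within 20 kb, 3.58 and 8.27, lay within 1 kb of a TSS of Nckipsd.

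The exon region of Celsr3 held the left arm TCAGCACC at 2 places, and after each the right arm GGACAG followed at a distance of 11 bases instead of 2. This arrangement was noticed after the values had been seen. The region, chr9:108827001-108827200 on the plus strand, is shown with these arms in capitals.
Celsr3 exon: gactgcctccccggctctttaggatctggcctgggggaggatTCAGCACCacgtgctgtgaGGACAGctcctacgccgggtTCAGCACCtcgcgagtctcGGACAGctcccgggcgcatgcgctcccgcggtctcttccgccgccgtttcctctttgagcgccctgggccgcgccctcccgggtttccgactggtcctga
Over the first pair of arms a footprint of 7 bp in replicate 1 and 10 bp in replicate 2 lay on the left arm. Over the second, one of 17 bp in replicate 1 and 7 bp in replicate 2 lay on the right arm. The left arm in any of its consensus spellings was present in 7.61% and 6.35% of all peaks.

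**Figure D2:**
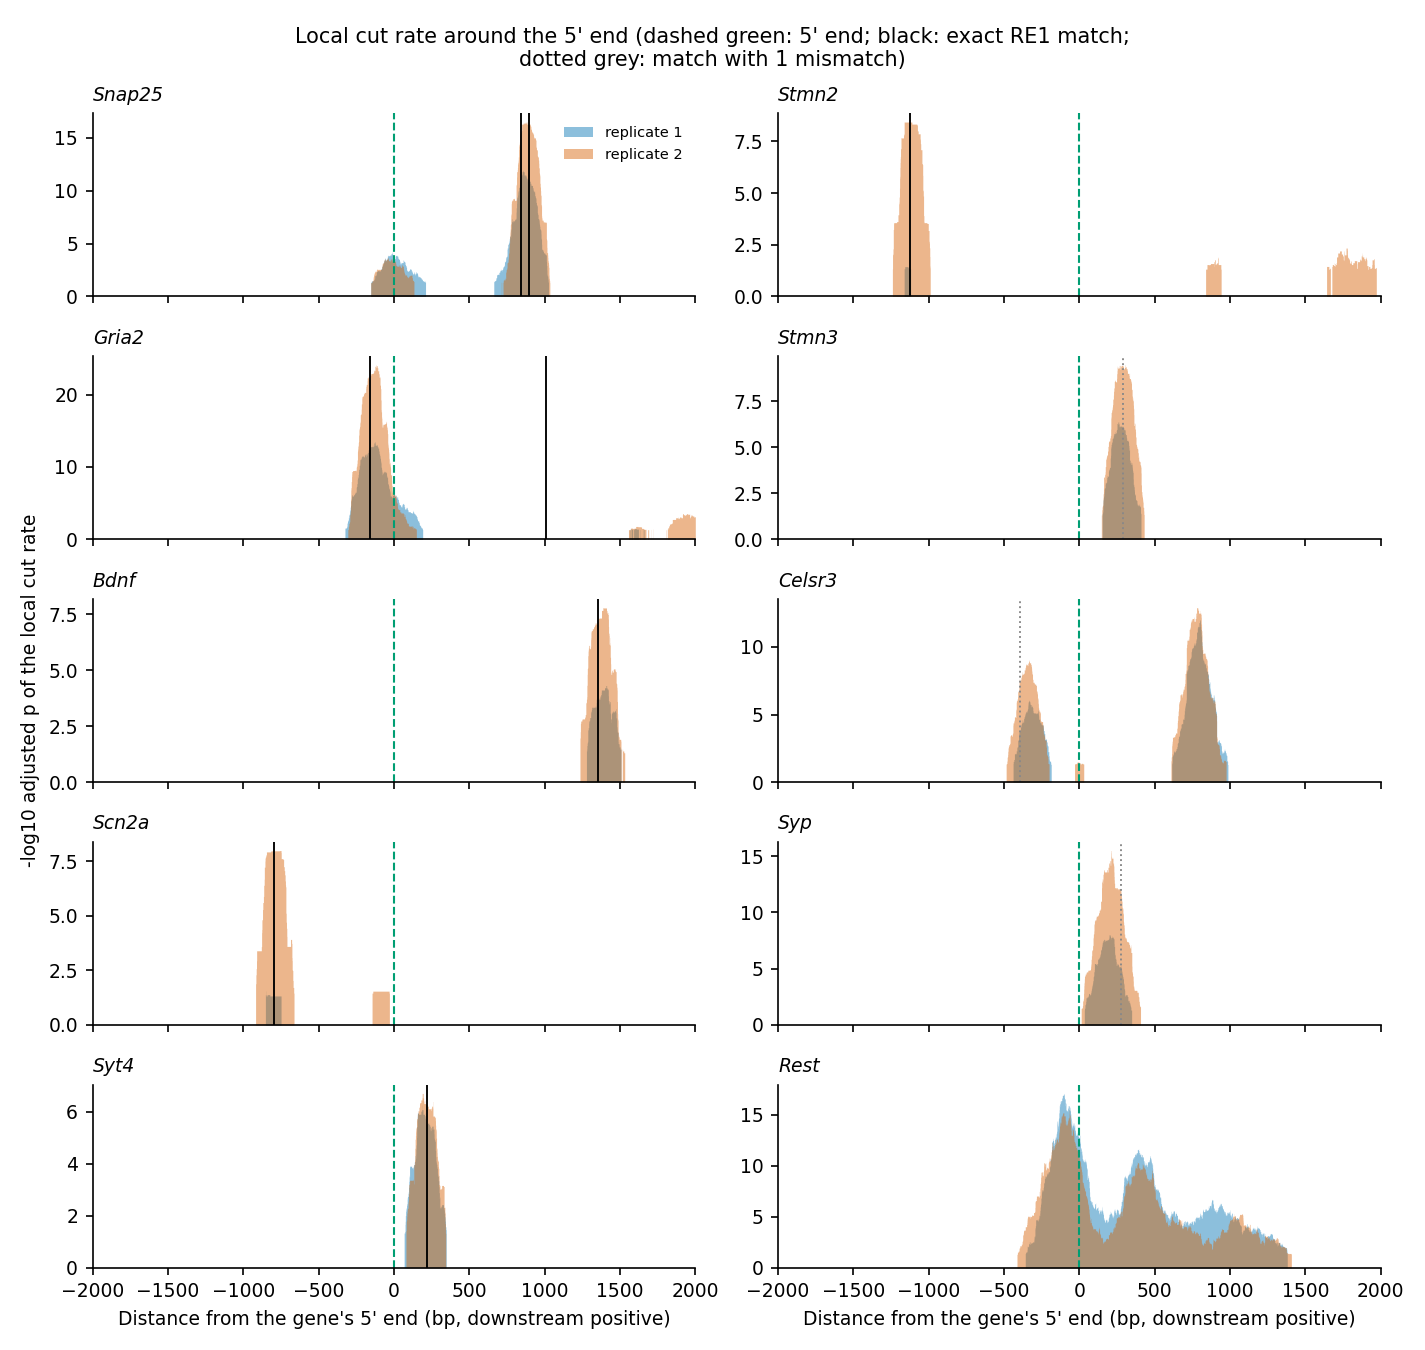
The −log10 of the deposited adjusted p of the local cut rate (y axis, a log scale, own range in each panel; only values below 0.05 are listed) against distance from the gene's 5′ end (x axis, bp), replicate 1 in blue and replicate 2 in orange, with a dashed green line at the 5′ end, black lines at exact RE1 matches and dotted grey lines at near matches. In Snap25, Bdnf, Scn2a, Syt4 and Stmn2 the summit lies 12 to 55 bp from the centre of a match and farther from the 5′ end, in Gria2 it lies between the match and the 5′ end, nearer to the match, and in Rest it lies within 102 bp of the 5′ end.

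The base-level list placed the summit closer to the repressor site than to the 5′ end at all 6 genes with an open exact match, though beside the 16 bases of the match and not on them. Within 2 kb of the 5′ end, the lowest adjusted p lay between 12 bp (Snap25, replicate 1) and 55 bp (Bdnf, replicate 1) from the centre of a match in each library, Stmn2 in replicate 1 included. The 6 genes were taken because a peak of at least 1 of the same libraries lay on the match. A summit near the match is therefore no separate evidence. In 4 of the 6 genes in replicate 1 (Bdnf, Scn2a, Syt4 and Stmn2) no position within 50 bp of the 5′ end was listed. The exceptions were Snap25 at 6.6e-05 and Gria2 at 6.41e-10. In replicate 2, Scn2a joined them at 0.0283.

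Footprints over the matches were wide, and in replicate 2 they reached past both arms. In replicate 2 all 6 footprints over the exact matches of these genes covered the whole match, and their widths ran from 21 to 29 bp. In replicate 1 there were 7 footprints over 5 matches, 10 to 27 bp wide, and 3 of the 5 matches were covered whole. The footprints of all libraries had a median width of 9 bp in both. Those over exact matches of the genome had medians of 13 bp in replicate 1 and 22 bp in replicate 2, and 33.1% and 59.6% of the matches with a footprint were covered whole.

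The edges past the right arm were set side by side. Counted from the centre of the match in its own direction, a plus-strand match spans bases -7 to 8. For Syt4, whose match is on the minus strand, the centre was taken 1 base further on. Its positions below therefore read 1 base lower than on the scale of the others. In replicate 2 the footprints of Snap25, Bdnf, Gria2 and Scn2a ended at base 16 and that of Stmn2 at base 17, while that of Syt4 ended at base 11. In replicate 1 the last footprint over the match ended at base 11 at Snap25, 14 at Scn2a, 15 at Syt4, 16 at Gria2 and 18 at Bdnf. At Gria2, Bdnf, Scn2a, Syt4 and the second Snap25 match, narrow footprints of 7 to 18 bp also lay on one or both sides of the match with their inner edges 43 to 68 bp from its centre, for example bases -66 to -49 and 55 to 61 at Gria2 in replicate 1. The upstream one at Gria2 lay over a further left arm, TCAGAGCC, in both libraries. At Snap25 the upstream one, in replicate 2 alone, ended at the edge of the first match. None was called beside the Stmn2 match.

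**Figure D3:**
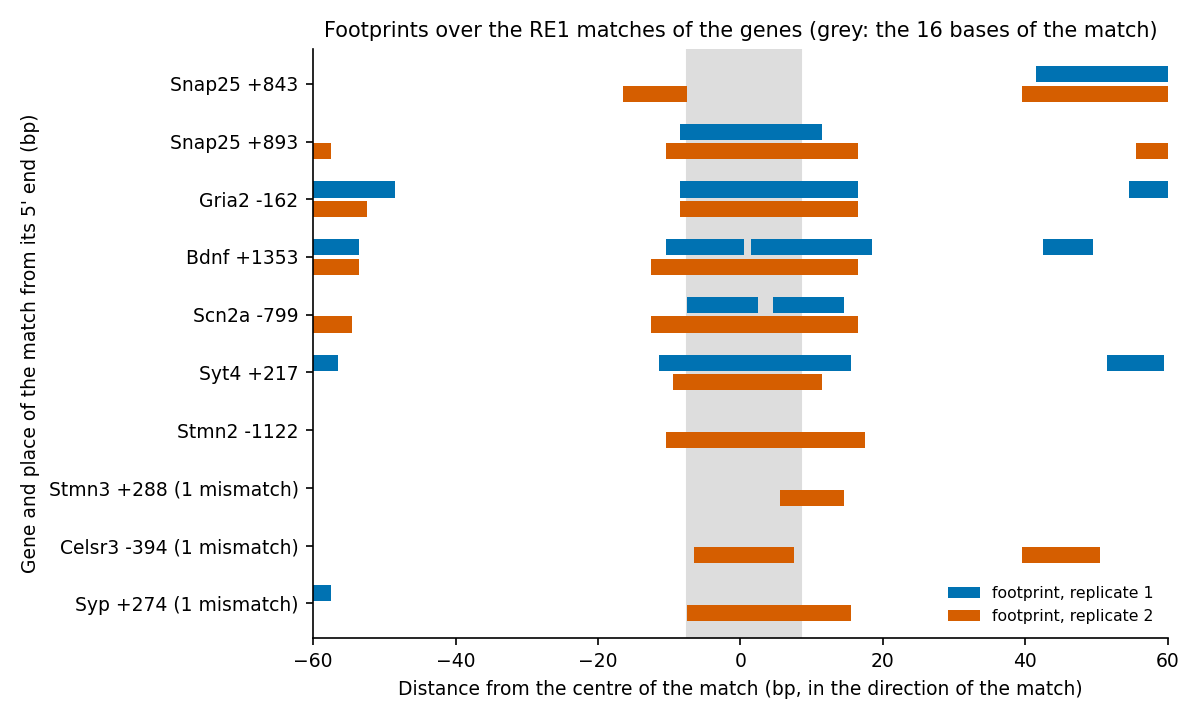
Footprints of replicate 1 (blue) and replicate 2 (orange) over each RE1 match of the genes that lay under a peak in at least 1 library (rows, named by gene and distance from its 5′ end in bp), against distance from the centre of the match in bp (x axis); the grey band is the 16 bases of the match. The bars of Gria2 run from -8 to 16 in both libraries, and the first Snap25 match has no bar across the band. At Syt4 and Stmn3, with matches on the minus strand, the bars are drawn 1 base too far left against the band.

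The spelling of the open matches was next followed through the whole genome. The most frequent letter at each position of the members' open exact matches gave TCAGCACCNNGGACAG, chosen after the values had been seen, and 376 places on chromosomes 1 to 19 and X held it. Of these, 47.6% lay under a peak in both libraries, and without the places of the 10 genes 174 of 370 did (47.0%). Of the 1787 exact matches with any other letters, 5.09% did. The Gria2 match belongs to those, since it has another second letter. The soft-masked reference marked 1 match with the most frequent letters and 83 of the others as repeats, and none of these lay under a peak in either library.

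Distance from a TSS went along with openness in both classes. Within 1 kb of a protein-coding TSS, 69.3% of the matches with the most frequent letters and 15.6% of the others lay under a peak in both libraries. Beyond 20 kb the shares were 40.6% and 4.03%. In replicate 2 alone they were 85.3% and 20.4% within 1 kb, and 67.1% and 7.86% beyond 20 kb. Matches with the most frequent letters were thus open more often beyond 20 kb than the others within 1 kb. Of the 270 exact matches under a peak in both libraries, 84.4% also had a footprint in both.

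The bases next to the match differed in the same way. Where the base after the most frequent letters was C, 64.4% of 191 places lay under a peak in both libraries, against 34.8% of 92 with A, 29.3% of 58 with T and 7 of 35 with G. Where the base before was T the share was 52.8% of 195, with G 50.6% of 81, with A 38.0% of 50 and with C 32.0% of 50. In replicate 2 alone the shares after the match were 83.2% with C, 59.8% with A, 55.2% with T and 51.4% with G, and before it 75.9% with T, 72% with A, 69.1% with G and 48.0% with C, so that A and G before the match changed places. The Snap25 match with a footprint had T before and C after. The Snap25 match without a footprint had C before and G after, and lay under the same peak.

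Openness around such matches was narrow. In replicate 1, 47.9% of the matches with the most frequent letters were covered by a peak at their centre, 9.57% at 100 bp before it and 12% at 100 bp after it, and 1.60% at 250 bp on either side. In replicate 2 the values were 70.2%, 5.58%, 13% and 1.06%. Footprints covered the centre of 35.1% and 59.6% of these matches, and 1.86% and 3.19% at 20 bp before it.

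A second, lower rise in footprints flanked the match. In replicate 2 coverage by footprints was 3.46% at 40 bp before the centre, 11.7% at 60 bp and 1.06% at 80 bp. After the centre it was 2.13%, 8.24% and 2.39% at the same distances. In replicate 1 the values at 60 bp were 5.58% before and 3.19% after. These are the distances of the narrow flanking footprints at Gria2, Bdnf, Scn2a, Syt4 and Snap25. Peak edges lie near the same distances, and whether they bear on these footprints was not tested.

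**Figure D4:**
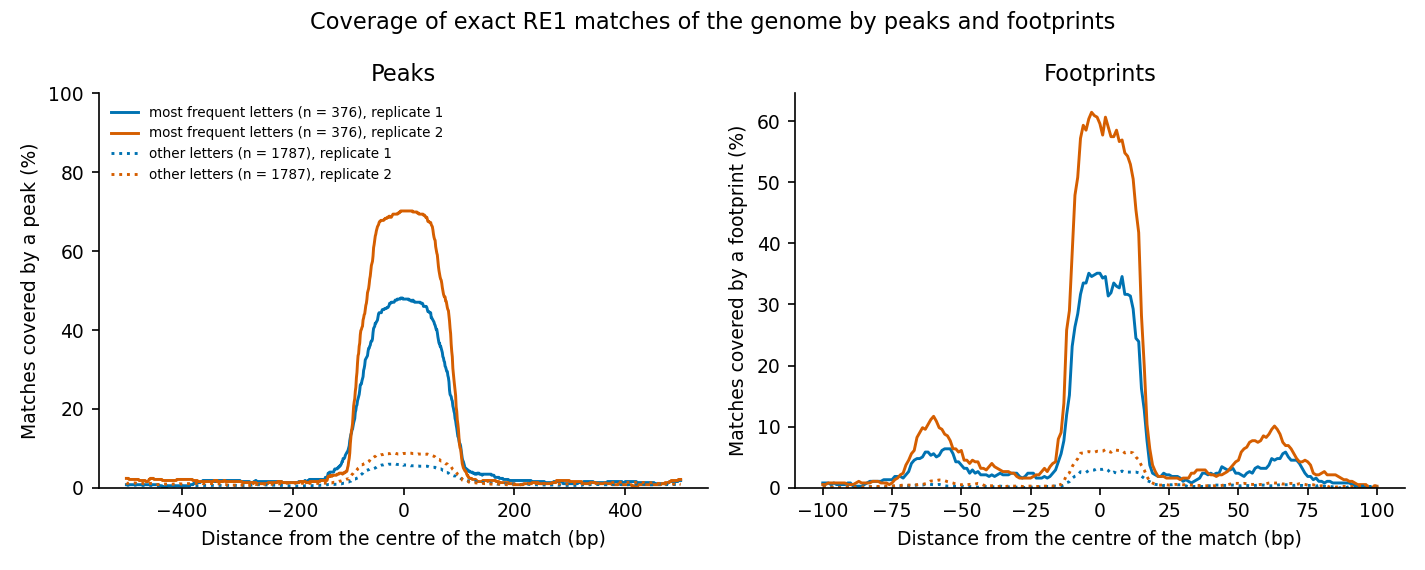
Share of exact RE1 matches of the genome (y axis, %) covered by a peak (left) or a footprint (right) at each distance from the centre of the match (x axis, bp), for the 376 matches with the most frequent letters (solid) and the 1787 others (dotted), replicate 1 in blue and replicate 2 in orange. Coverage by peaks with the most frequent letters is 47.9% and 70.2% at the centre, and coverage by footprints has a second rise near 60 bp on both sides, 11.7% before the centre in replicate 2.

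The arrangement seen in the Celsr3 exon was also counted genome-wide, with the arms TCAGCACC and GGACAG at every distance from 0 to 25 bases. The usual distance of 2 bases had 376 places, 47.6% of them under a peak in both libraries. Distances of 3 to 6 bases had 191 places and 1.57%. Distances of 7 to 11 bases had 391 places and 17.4%, and footprints overlapped 15.3% of them in both libraries. Distances of 12 to 25 bases had 530 places and 1.51%. The open distances thus formed separate groups, 2 bases with its neighbours 0 and 1 (15.5% of 58 places) and 7 to 11 bases.

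Within 7 to 11 bases the share ran from 10.0% of 40 places at 11, where the Celsr3 exon gave 2 of the 4 open places, to 26.7% of 45 places at 7. None of the 68 open places had an exact match to the usual consensus under the same peak. Numbers of places alone did not follow openness: a distance of 14 bases had 119 places, of which 0 lay under a peak in both libraries. The groups of distances were set after the shares had been seen and carry no test.

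**Figure D5:**
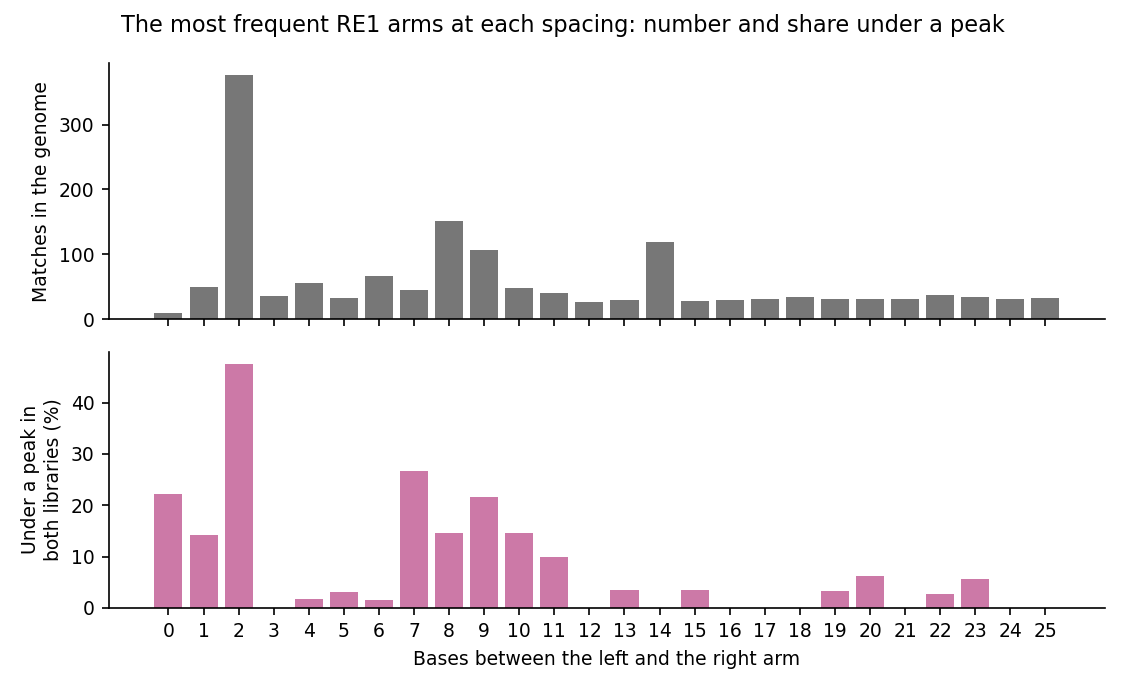
Number of places in the genome (top) and share of them under a peak in both libraries (bottom, %) for each number of bases between the left arm and the right arm of RE1 in their most frequent letters (x axis). Distances of 2 bases (376 places, 47.6%) and of 7 to 11 bases stand above their neighbours, and 14 bases has 119 places with none open in both libraries.

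Signal on the matches of the 10 genes was set beside that of the genome. Peaks over exact matches had a median signal of 0.887 over 289 matches in replicate 1 and 1.75 over 422 in replicate 2. Snap25, Gria2, Syt4 and Bdnf lay above the median in replicate 1 and Scn2a below it. In replicate 2 Snap25, Gria2 and Bdnf lay well above it, and Stmn2, Syt4 and Scn2a between 1.74 and 1.78. Matches within 1 kb of a protein-coding TSS had higher medians, 1.12 over 85 matches in replicate 1 and 2.56 over 98 in replicate 2. Beside these, Snap25 and Gria2 lay above in both libraries, and Bdnf, Syt4 and Scn2a below in both. Snap25 and Gria2 came first and second in both libraries, whereas Syt4 and Bdnf changed places.

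Other known targets of REST were described in the same way. Of 20 such genes, 12 had an exact match and 9 had one under a peak in both libraries, against 1.38% of all protein-coding genes. The highest were Chgb, a granin of dense-core vesicles, with 2.85 in replicate 1 and 8.12 in replicate 2 at 524 bp downstream of its 5′ end, and Npas4, an activity-induced transcription factor, with 2.76 and 7.80. Glra1, a glycine receptor subunit, had 2.38 and 4.85, Chrnb2, a nicotinic receptor subunit, 2.17 and 4.31, and Chga, the granin of chromaffin cells, 1.48 and 4.45. At 6 of 8 targets with both places open, the peak on the match was the strongest in the TSS window, against 26.6% of 237 such genes in the genome. These genes too were listed as known targets, so the counts are no independent evidence of an excess over the genome. Vgf, a secreted neuropeptide precursor, had the strongest TSS peak of the list, 3.28 and 9.39, without an exact match.

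The machinery that works with REST was open at its start sites throughout. All 20 genes of corepressors and regulators had a TSS peak in both libraries, against 61.3% of all protein-coding genes. The median signal was 3.12 and 5.81. None of the 20 had an exact match under a peak in both, against 1.38% of all protein-coding genes. Ctdsp2, a phosphatase of the family recruited by REST, had 5.25 and 13.8, Btrc, part of the ligase that degrades REST, 6.63 and 12.1, and Smarca4, a chromatin remodeller, 4.77 and 9.67. Srrm4, the splicing factor that inactivates Rest transcripts in neurons, had 3 exact matches in introns under a peak in replicate 2 alone, the strongest at 1.90; it is named here after its values were seen.

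Markers of neurons and of other cells were mixed. Of 10 neuron markers 6 had a TSS peak in both libraries (Nefm with 1.16 and 3.91, Map2 with 1.52 and 3.10, Elavl4 with 1.25 and 2.64), and Elavl3, Prph and Slc17a7 had none in either. That count was near the share of all protein-coding genes, 61.3%. Rbfox3, the gene of the neuronal nuclear antigen, had exact matches under peaks in both libraries far inside the gene. Of 10 chromaffin markers Slc18a1, a vesicular transporter, had 4.25 and 10.4 at a peak within 1 kb of a TSS of Atp6v1b2, Gata3 had 2.18 and 1.05, and Hand2 0.836 and 1.06, and none of the 10 had an exact match. Among Schwann and neural crest markers, Erbb3, a neuregulin receptor, had a TSS peak of 1.43 and 2.04, and Ngfr and S100b had none in either library. The part of these cells in the openness of the RE1 matches was not tested.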

How the data were processed

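Deposited lists of peaks, footprints and local cut rates were used, all on mm10 per the file headers, 1 set per library. The peak lists give the authors' signal per peak, and the longer list served as the main one. The lists of local cut rates give the authors' adjusted p-value, listed below 0.05, and every deposited footprint carries 0.01, taken as a threshold. Not given in the sources used here: aligner, callers, read depth, signal scaling. Counting error per peak could therefore not be computed. Labels number the samples as biological replicates but give them 1 shared donor identifier, and how animals were pooled is not given, so agreement of the libraries may cover technical spread only.

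Peaks, footprints and RE1 matches in the GRCm38.p6 sequence were set against GENCODE M21 by overlaps of at least 1 bp (Python 3.11.15, numpy 2.4.6, pandas 2.3.3). The scan was checked on simulated sequence. Reads of both parental genomes were placed on a C57BL/6J reference. Members and lists were chosen with earlier results of these data known. Named from each other list were the 3 genes of highest mean TSS signal, those with an open exact match (at most 6 a list) and up to 3 without a TSS peak. Some genes of the Schwann and neural crest list are not reported here.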

Additional observations from a re-analysis of the deposited data

How the results depend on the processing

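The counts for the 10 genes stayed within 1.5 times their value under every alternative run. With either library alone, genes with a TSS peak numbered 9 to 10, genes with an open exact match 5 to 6, open exact matches 6 to 7 and matches with a footprint 5 to 6. The stricter peak list left 4 genes and 5 matches, since Scn2a dropped out, and allowing 1 mismatch raised them to 7 and 8. Counting the gene's 5′ end alone left 8 genes with a TSS peak. The share of all exact matches of the genome under a peak moved from 12.5% to 7.67% with the stricter list, to 1.70% with 1 mismatch allowed, and ranged from 13.4% to 19.5% with 1 library alone. A TSS window of 500 bp removed the RE1 peaks of Snap25 (0.844 and 1.25 remained) and of Scn2a (0.862 remained in replicate 2), and one of 2500 bp added that of Stmn2 (1.78). Both replicates belong to 1 group. No paired analysis was possible because there is no second group. Replicate 1 has fewer peaks and the depth of both libraries is unknown, so a missing peak in replicate 1 alone, as at Stmn2, does not show closed chromatin.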
